A study of Mus musculus with 4 samples.

Results

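The genes described here are Trem2, its signalling adaptors and the Syk pathway that they feed, in microglia of a mouse model of Alzheimer's disease. They were chosen by symbol: the receptors Trem2 and Treml2, the adaptors Tyrobp (also called DAP12) and Hcst (DAP10), the tyrosine kinases Syk and Btk, the scaffold Lat2, the exchange factor Vav1, the phospholipase Plcg2 and the lipid phosphatase Inpp5d (SHIP1). Gene positions are given on GRCm38.p6. All 10 were found among the 49993 genes with a count, and all 10 passed the filter on low counts that left 21439 genes for testing. The RNA came from CD11b+ cells, labelled microglia, taken from the brains of 10-month-old mice by magnetic sorting. Every mouse carried the APP/PS1 transgenes, which make amyloid accumulate in the brain. Libraries labelled AD (n = 2) had the genotype APP/PS1+ asrij+/+, and libraries labelled AD/KO (n = 2) had APP/PS1+ asrij-/-, a constitutive deletion of asrij, the mouse gene Ociad1. The labels give neither the APP/PS1 line nor its promoters, nor the sex of the mice or how many contributed to a library. They do not say that the libraries of a group came from separate animals, so the p-values measure only the spread between these libraries.

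As background, Trem2 is a surface receptor of microglia that binds lipids and lipoproteins and has almost no signalling tail of its own. It pairs with Tyrobp, whose activation motif is phosphorylated by Src family kinases and then recruits Syk. Syk phosphorylates scaffolds such as Lat2, and Plcg2, Vav1 and Btk act in the same pathway. Inpp5d removes the phosphoinositide lipids that hold several of these proteins at the membrane. In mouse models with amyloid, microglia near plaques are known to need Trem2 to reach the full disease-associated state.

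Promoter windows are shown for 4 of the genes: Inpp5d, Vav1 and Hcst, whose windows held the letters AGGAAGT, and Trem2. PU.1, the ETS family factor of myeloid cells, prefers sites that contain these letters. The windows are RefSeq's, on GRCm38.p6, from 250 bases before to 50 bases after the start site, written 5′ to 3′ on the gene's strand. Capitals mark AGGAAGT, searched on both strands.
Inpp5d (chr1:87620062-87620361, plus strand): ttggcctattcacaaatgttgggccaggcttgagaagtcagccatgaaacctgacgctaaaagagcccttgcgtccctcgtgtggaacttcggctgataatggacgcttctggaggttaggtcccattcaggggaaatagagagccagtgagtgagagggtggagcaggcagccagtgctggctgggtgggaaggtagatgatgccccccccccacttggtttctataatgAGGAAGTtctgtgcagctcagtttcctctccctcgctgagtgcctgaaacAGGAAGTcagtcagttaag
Vav1 (chr17:57278850-57279149, plus strand): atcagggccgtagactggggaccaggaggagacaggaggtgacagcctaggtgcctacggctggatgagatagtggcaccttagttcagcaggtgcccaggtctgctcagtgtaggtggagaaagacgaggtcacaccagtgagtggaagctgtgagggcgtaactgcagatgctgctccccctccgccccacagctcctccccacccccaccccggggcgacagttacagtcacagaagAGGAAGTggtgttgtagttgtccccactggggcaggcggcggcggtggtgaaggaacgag
Hcst (chr7:30419805-30420104, minus strand): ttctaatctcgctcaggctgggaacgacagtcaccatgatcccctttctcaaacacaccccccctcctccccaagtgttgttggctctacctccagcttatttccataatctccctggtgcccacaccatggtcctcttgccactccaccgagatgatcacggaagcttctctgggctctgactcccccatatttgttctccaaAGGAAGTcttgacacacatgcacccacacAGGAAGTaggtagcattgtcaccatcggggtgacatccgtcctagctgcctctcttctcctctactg
Trem2 (chr17:48346151-48346450, plus strand): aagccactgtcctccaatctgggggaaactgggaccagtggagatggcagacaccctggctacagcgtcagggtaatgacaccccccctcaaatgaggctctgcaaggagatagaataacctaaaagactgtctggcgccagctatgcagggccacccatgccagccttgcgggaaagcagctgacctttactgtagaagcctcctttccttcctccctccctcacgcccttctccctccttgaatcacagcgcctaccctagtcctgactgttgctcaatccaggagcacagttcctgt
Windows were matched for 7 of the 10 genes (8 windows, as Syk has a pair), and 3 of the 8 held AGGAAGT, against 9.35% of all 32851 promoter windows of 300 bases. In Inpp5d it began at −19 and at 32 relative to the start site, in Vav1 at −10, and in Hcst at −46 and −17. The longer letters GAGGAAGT, which contain AGGAAGT, were in 2 of the 8 windows (Inpp5d and Vav1) and in 3.20% of all windows. The window shown for Trem2 held neither, and so did those of Plcg2, Syk and Btk, which are not shown. A match is a description of the letters, not of binding.

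The libraries differed in total count (13102622 to 19810076) and in the levels of cell type markers. The 18 microglia identity genes averaged 10.004 and 9.47 log2 CPM (CPM, read counts scaled by TMM to a common library size) in AD replicates 1 and 2, and 9.96 and 8.27 in AD/KO replicates 1 and 2. Itgam, which encodes CD11b, was present in all 4 libraries at 374 to 1313 CPM. Neuron markers averaged 4.56, 6.27, 6.05 and 7.63 in the same order, and astrocyte markers 6.32, 7.63, 7.73 and 9.005, so AD/KO replicate 2 stood lowest for microglia genes and highest for both of these lists. The 11 neutrophil markers summed to 4552 CPM in AD replicate 2 and to 336 to 529 CPM in the other libraries, with none at 0 reads. The 7 monocyte markers, none at 0 reads, summed to 228 and 604 CPM in AD and to 95.2 and 141 CPM in AD/KO. Their sum was thus highest in AD replicate 2, where Chil3 alone was at 294 CPM, and lower in both AD/KO libraries. In such bulk samples, fewer cells of a type and less RNA per cell cannot be told apart. As a check of the labels, Ociad1 was at 50.2 and 63.4 CPM in AD and at 38.9 and 32.1 CPM in AD/KO. It was thus lower but not lost, and AD/KO means below the libraries labelled so.

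**Figure D1:**
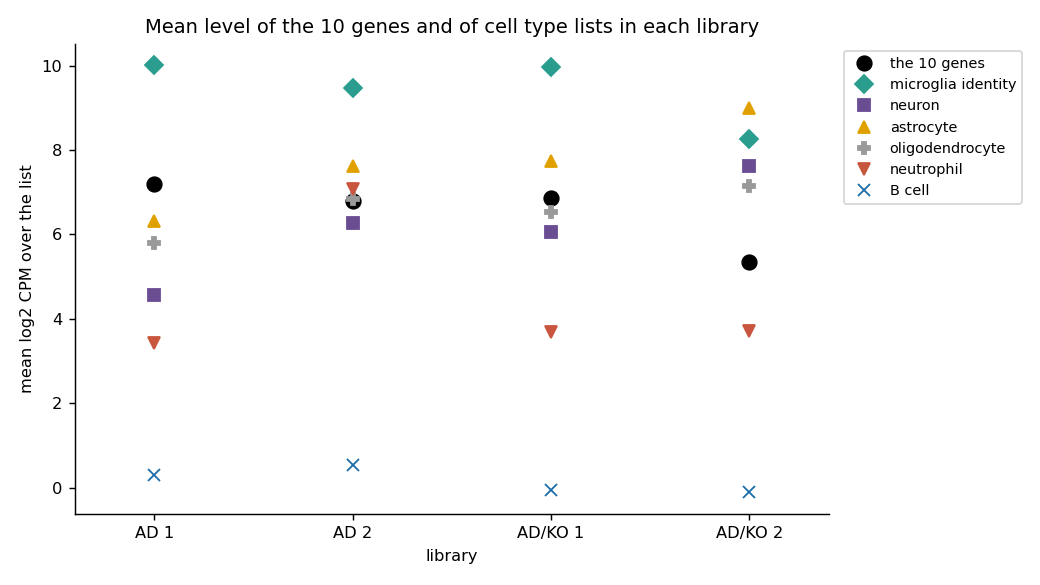
Mean log2 CPM (y axis) of the 10 genes and of lists of cell type markers in each library (x axis), 1 point per list and library. The 10 genes are lowest in AD/KO 2, at 5.36, where the microglia identity genes are also lowest, at 8.27, and the astrocyte markers highest, at 9.005.

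The comparison asked whether loss of asrij went with a different level of the Trem2 to Syk pathway. All 10 genes had a lower mean in AD/KO, with log2 fold changes from −1.30 (Treml2) to −0.46 (Hcst) and a median of −0.69, against −0.05 over all genes tested, of which 52.8% were lower. In the same fit 16 of the 18 microglia identity genes were lower, with a median of −0.37. The order of the 10 genes across libraries was shared: AD/KO replicate 2 was the lowest library for 10 of 10 genes, and AD replicate 1 was the highest for 7. AD/KO replicate 1 was above AD replicate 2 for 7 of the 10. The 2 AD/KO values were under each AD value for 2 genes, Treml2 and Tyrobp, that is 2 of 10 against 21.7% of all genes tested. With edgeR (quasi-likelihood F-test, Benjamini-Hochberg adjusted), none of the 10 passed at 0.05 (adjusted p from 0.680 to 0.795). The same was true of all genes, of which 0% passed, with 1072 (5%) at an unadjusted p under 0.05, among them 1 of the 10 (Treml2). DESeq2 called 90 genes (0.42%) and none of the 10. A fit with the replicate number as a block, which the labels do not support as a pairing, called 4333 genes (20.2%) and 3 of the 10 (Treml2, Btk and Lat2). Without AD/KO replicate 2 the median of the 10 genes was −0.09 and 8 were lower. Without AD/KO replicate 1 it was −1.67 and all 10 were lower. The part of the low microglia and high neuron and astrocyte marker levels of AD/KO replicate 2 in these values was not tested.

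**Figure D2:**
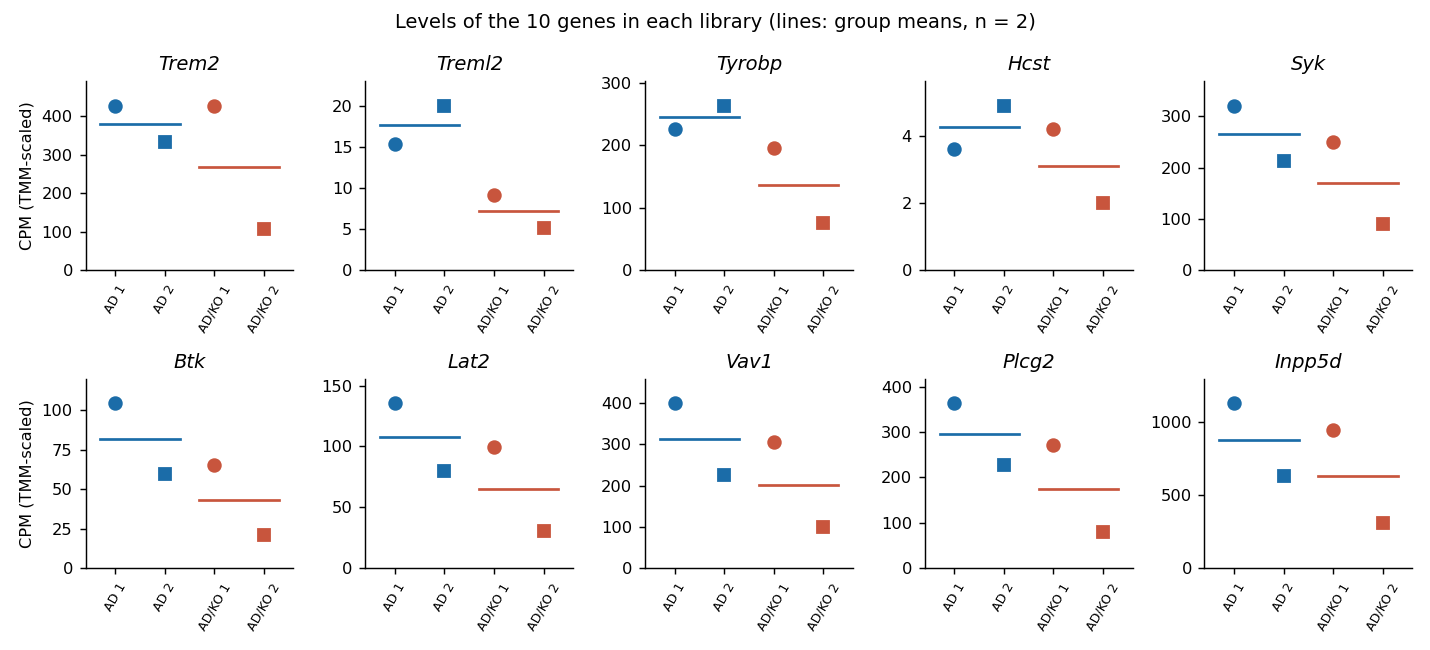
TMM-scaled CPM (y axis, from 0) of each of the 10 genes in the 4 libraries (x axis, circles for replicate 1, squares for replicate 2, blue for AD, red for AD/KO), with lines at the group means (n = 2). AD/KO 2 is the lowest point in every panel, and for Treml2 and Tyrobp both red points lie under both blue points.

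Among the receptors, Trem2 (protein-coding, chromosome 17 from 48346401 to 48352276, gene ID 83433) had 5876 and 5409 reads in AD and 8154 and 2000 reads in AD/KO. These gave 426 and 332 CPM in AD and 425 and 109 CPM in AD/KO. AD/KO replicate 1 was thus nearly level with the higher AD library, while AD/KO replicate 2 stood far below the rest, and the groups overlapped. Averages were 379 ± 66.5 CPM in AD and 267 ± 224 CPM in AD/KO (SD, n = 2 each), a log2 fold change of −0.51 (SE 0.71, 95% interval −2.34 to 1.32, adjusted p = 0.788 by edgeR). Without AD/KO replicate 2 the log2 fold change of Trem2 was 0.17, and without AD/KO replicate 1 it was −1.75, so its direction rested on 1 library.

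Treml2 (protein-coding, chromosome 17 from 48299390 to 48312534, gene ID 328833), a related receptor also known from B cells and other leukocytes, was far less abundant. It stood at 15.4 and 20.04 CPM in AD (212 and 326 reads) and at 9.18 and 5.21 CPM in AD/KO (176 and 96 reads). Both AD/KO libraries were below both AD libraries, and the log2 fold change of −1.30 (SE 0.44, 95% interval −2.44 to −0.16) was the lowest of the 10. Its unadjusted p of 0.0327 became an adjusted p of 0.680 in edgeR. AD replicate 2, the library with the most neutrophil marker RNA, was the highest for Treml2; without it the log2 fold change was −1.03. The B cell markers summed to 15.1 to 23.9 CPM per library, with Iglc2 at 0 reads in all 4. The part of other leukocytes in the Treml2 values was not tested.

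Of the adaptors, Tyrobp (protein-coding, chromosome 7 from 30413782 to 30417582, gene ID 22177), the activating partner of Trem2, was at 226 and 263 CPM in AD and at 196 and 76.5 CPM in AD/KO. Both AD/KO libraries were below both AD libraries, AD/KO replicate 1 by a small margin. The means were 245 ± 26.2 and 136 ± 84.8 CPM (SD, n = 2 each), a log2 fold change of −0.84 (SE 0.53, 95% interval −2.22 to 0.53, adjusted p = 0.680 by edgeR), which became −0.31 without AD/KO replicate 2. Hcst (protein-coding, chromosome 7 from 30417712 to 30419854, gene ID 23900) encodes a small adaptor that recruits PI3-kinase in place of Syk. It lies 129 bases from Tyrobp, end to end on the other strand, yet had only 50, 80, 81 and 37 reads (3.63 and 4.92 CPM in AD, 4.22 and 2.01 CPM in AD/KO). The groups overlapped, and the log2 fold change of −0.46 (SE 0.59) was −0.01 without AD/KO replicate 2.

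Of the kinases, Syk (protein-coding, chromosome 13 from 52582610 to 52648792, gene ID 20963), which docks on phosphorylated Tyrobp, was at 320 and 212 CPM in AD and at 250 and 90.1 CPM in AD/KO. AD/KO replicate 1 lay between the AD libraries. The log2 fold change was −0.65 (SE 0.59, 95% interval −2.17 to 0.88, adjusted p = 0.709 by edgeR) and −0.08 without AD/KO replicate 2. Btk (protein-coding, chromosome X from 134542334 to 134583628, gene ID 12229), a Tec family kinase that activates Plcg2, was at 104 and 59.6 CPM in AD and at 65.5 and 21.0 CPM in AD/KO. AD/KO replicate 1 was just above the lower AD library. Its log2 fold change of −0.92 (SE 0.63, 95% interval −2.55 to 0.71, adjusted p = 0.680 by edgeR) was −0.31 without AD/KO replicate 2.

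The scaffold Lat2 (protein-coding, chromosome 5 from 134600103 to 134619783, gene ID 56743) was at 135 and 80.2 CPM in AD and at 99.5 and 30.3 CPM in AD/KO, with AD/KO replicate 1 between the AD libraries. Its log2 fold change was −0.73 (SE 0.64, adjusted p = 0.704 by edgeR). In GENCODE M21, 51.9% of the exon bases of Lat2 lie opposite exons of Rfc2 on the other strand. The use of strand in counting is not given in the sources used here, so reads there could belong to either gene. Rfc2 itself was at 28.6, 28.2, 27.1 and 22.4 CPM in AD 1, AD 2, AD/KO 1 and AD/KO 2. No other gene of the 10 shared exon bases with another gene, or at least 100 bases at 95% identity or more with another gene's transcript.

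The effectors and the inhibitor showed the same order of libraries. Vav1 (protein-coding, chromosome 17 from 57279100 to 57329236, gene ID 22324), which activates Rac, was at 399 and 225 CPM in AD and at 305 and 99.5 CPM in AD/KO, for a log2 difference of −0.62 (SE 0.66). Plcg2 (protein-coding, chromosome 8 from 117498275 to 117635142, gene ID 234779), which cleaves a membrane phosphoinositide to release calcium signals, was at 363 and 226 CPM in AD and at 272 and 78.6 CPM in AD/KO, for a log2 difference of −0.75 (SE 0.68). Inpp5d (protein-coding, chromosome 1 from 87620312 to 87720510, gene ID 16331) had the most reads of the 10 genes, at 1130 and 635 CPM in AD and 948 and 313 CPM in AD/KO, for a log2 difference of −0.49 (SE 0.71). In all 3 genes AD/KO replicate 1 lay between the AD libraries and the adjusted p by edgeR was 0.709 to 0.795. Without AD/KO replicate 2 the log2 fold changes were −0.02, −0.10 and 0.11, so that Inpp5d changed direction.

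Per kilobase of exon, the mean level over the 4 libraries was highest for Tyrobp (338 CPM per kb) and Trem2 (283), followed by Inpp5d (152), Vav1 (86.8), Plcg2 (54.7), Lat2 (47.1), Syk (36.2), Btk (23.2), Hcst (8.36) and Treml2 (2.70). The receptor and its main adaptor were thus several-fold above Syk and the other kinase. In 4 of 4 libraries the order from Trem2 down was the same. Tyrobp was above Trem2 in 3 of the 4, the exception being AD/KO replicate 1. Across libraries the ranges of neighbours in this order overlapped, except those of Hcst and Treml2.

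Because AD/KO replicate 2 was low in microglia genes as a class, the counts were also scaled so that the 18 microglia identity genes had the same geometric mean in each library. On that scale Trem2 was at 286 and 322 CPM in AD and at 294 and 242 CPM in AD/KO. AD/KO replicate 1 lay between the AD libraries and AD/KO replicate 2 was the lowest, with a smaller spread among libraries than in CPM. Syk was at 214 and 205 CPM against 173 and 201 CPM, Btk at 69.8 and 57.6 against 45.3 and 46.9 CPM, and Plcg2 at 243 and 219 against 188 and 176 CPM. With Lat2, these were the 4 of 10 genes with both AD/KO libraries below both AD libraries on this scale, where 7.79% of all genes tested were. The scaling itself makes that share small, as it raised most genes in AD/KO. The same count among the identity genes is not given here, so the 4 of 10 cannot be set against microglia genes. Inpp5d, at 756 and 614 against 655 and 698 CPM, was not separated. The median log2 fold change of the 10 genes was −0.24, with 9 lower and Hcst at 0.04, while the median over all genes was 0.75 and 19.9% of them were lower. Of the 18 identity genes themselves, 10 were lower on this scale, with a median of −0.0073. None of the 10 pathway genes passed with this scaling (edgeR adjusted p from 0.854 to 0.996).

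**Figure D3:**
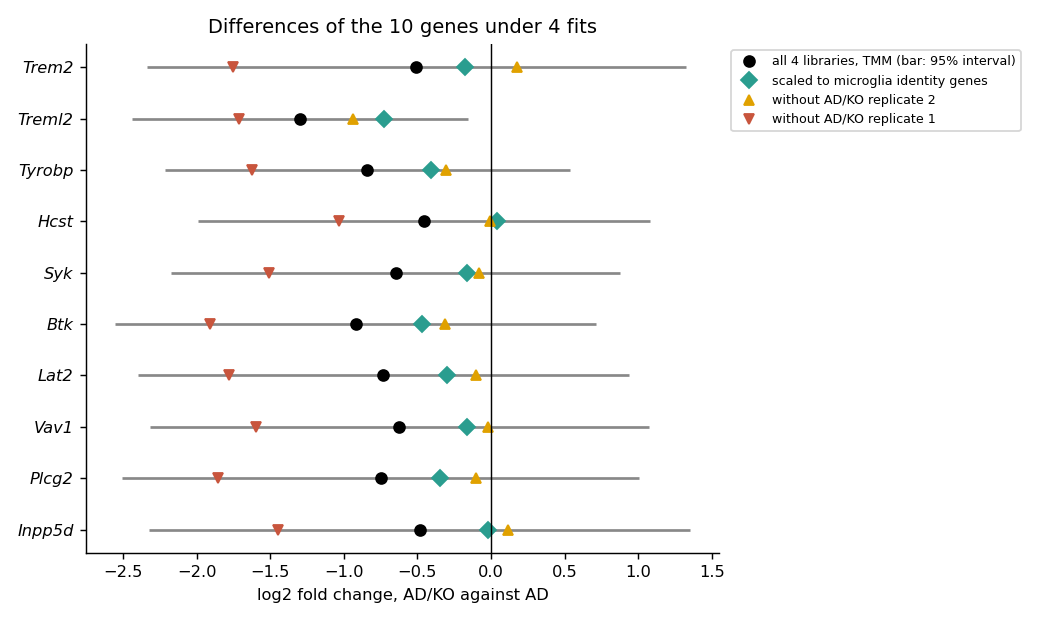
Log2 fold change of AD/KO against AD (x axis) for each of the 10 genes (y axis) under 4 fits, with the 95% interval of the fit on all libraries as a bar. The values move from about −1.67 (median without AD/KO replicate 1) to about −0.09 (median without AD/KO replicate 2), and only the interval of Treml2 lies wholly under 0.

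Ratios of 2 genes within a library do not depend on how libraries are scaled. There were 1.89 and 1.26 Trem2 reads per Tyrobp read in AD and 2.16 and 1.42 in AD/KO, and the groups overlapped. Plcg2 reads per Syk read were 1.14 and 1.07 in AD and 1.09 and 0.873 in AD/KO, also overlapping. Inpp5d reads per Syk read, 3.53 and 2.995 in AD and 3.80 and 3.47 in AD/KO, overlapped as well. The ratio of Hcst to Tyrobp, 0.0161 and 0.0187 in AD and 0.0215 and 0.0262 in AD/KO, was higher in both AD/KO libraries, a log2 difference of 0.46. Its two-sided exact permutation p was 0.333, the smallest that 2 libraries against 2 can give, and 0.800 after Benjamini-Hochberg adjustment over the 6 ratios computed. The ratios of Treml2 to Trem2 and of Syk to Tyrobp overlapped between the groups (exact permutation p of 0.667 and 1).

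The genes whose pattern over the 4 libraries was nearest to that of Trem2 were P2ry12, a purinergic receptor that marks resting microglia, then Cd300c2, Syngr2, Gm31003 and Hfe. The measure was the Euclidean distance between log2 CPM deviations from each gene's mean, over 11306 genes with at least 10 CPM. P2ry12 was at 1336, 1037, 1323 and 348 CPM in AD 1, AD 2, AD/KO 1 and AD/KO 2, a distance of 0.0347. For Syk the nearest were Nhlrc3, Itgam (CD11b, the antigen used for sorting), Il13ra1, Lyn and Adcy7, at distances of 0.0359 to 0.0587. Itgam was at 1313, 848, 1012 and 374 CPM. With 4 libraries and few distinct patterns, likeness is a description only.

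The other genes of the Trem cluster on chromosome 17, chosen for their position after the values were seen, are given beside Trem2 and Treml2. Trem1, an amplifier of myeloid inflammation, was at 2.32 and 10.0 CPM in AD and at 1.72 and 2.22 CPM in AD/KO. Trem3 was at 1.67 and 7.19 CPM against 0.573 and 1.03, and Treml4 at 3.56 and 9.47 CPM against 2.24 and 1.36. In these 3 genes, as in Treml2, both AD/KO libraries were below both AD libraries and AD replicate 2 was the highest. Without that library, which had the most neutrophil and monocyte marker RNA, the log2 fold changes went from −1.65 to −0.17 for Trem1, from −2.46 to −0.99 for Trem3 and from −1.85 to −0.91 for Treml4. Treml1, known from platelets and lying next to Trem2, was at 7.48 and 5.29 CPM in AD and at 8.03 and 2.88 CPM in AD/KO, an order of libraries that overlapped between the groups.

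**Figure D4:**
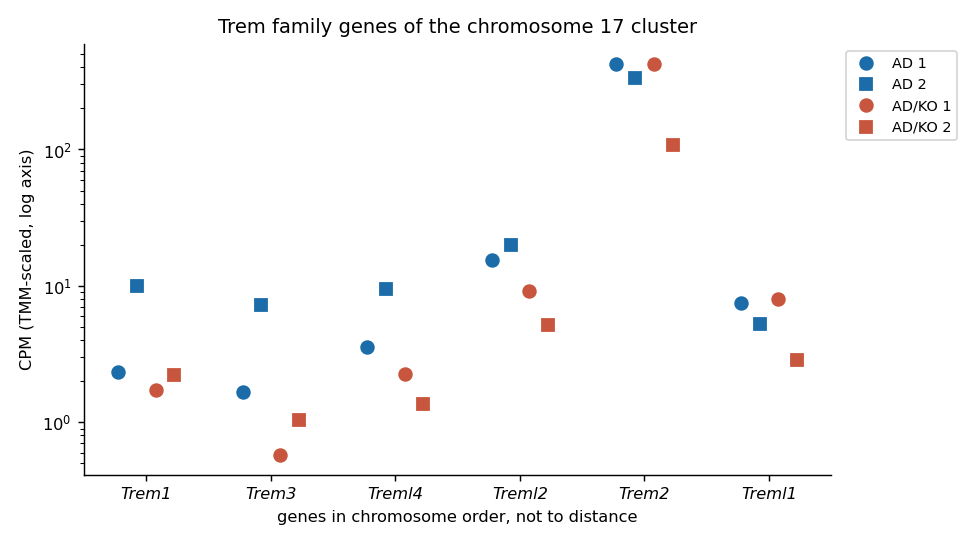
TMM-scaled CPM (y axis, log scale) of the 6 Trem family genes of the chromosome 17 cluster that were tested, in chromosome order (x axis, not to distance), 1 point per library. Trem2 stands well above the rest, at 109 to 426 CPM, and AD 2 is the highest point for Trem1, Trem3, Treml4 and Treml2.

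The other genes of the pathway were taken from 6 lists of receptors, adaptors, kinases, effectors, inhibitors and Trem2 ligands. Besides the 10 genes, 100 of 103 listed genes were tested, and 80 were lower and 20 higher in AD/KO, with a median log2 fold change of −0.51. Over all genes tested 52.8% were lower, and of the microglia identity genes 16 of 18 were. None of the 100 passed in edgeR, and 15 had an unadjusted p under 0.05, all lower, against 5% of all genes in either direction. With DESeq2, 2 of the 100 passed, against 0.42% of all genes. These were the receptor Sirpb1c (DESeq2 adjusted p = 0.0471) and the inhibitory receptor Lilrb4a (DESeq2 adjusted p = 0.0243), both lower. Sirpb1c had only 11 and 4 reads in the AD/KO libraries. In 32 of the 100 the AD/KO values were all under the AD values, against 21.7% of all genes tested. In 8 they were all above, against 4354 of the 21439 genes tested. On the scale of the microglia identity genes 49 of the 100 were lower, with a median of 0.045. Over all genes 19.9% were lower on that scale, with a median of 0.75. Of the identity genes themselves 10 of 18 were lower, a share similar to that of the 100.

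The list of Trem family receptors and other receptors that pair with Tyrobp or Hcst had the lowest median of the 6. Of the 15 tested besides Trem2 and Treml2, 15 were lower in AD/KO, with a median log2 fold change of −1.84. In 12 both AD/KO libraries were below both AD libraries. Over all genes tested these shares were 52.8% and 21.7%. Sirpb1a, Sirpb1b, Sirpb1c, Klrk1 and Cd200r3 reached the filter on low counts in both AD libraries but not in both AD/KO libraries. Their lower values are thus no separate support for these counts. With no filter on low counts, 15 were tested and 15 were lower, with a median of −1.86. Apart from Clec5a, Siglech and Cd300lb, these genes averaged under 10 CPM in both groups, with Klrk1 at 1 to 14 reads. Cd300lb, an activating receptor of myeloid cells, was at 9.29 and 24.9 CPM in AD and at 3.70 and 5.86 CPM in AD/KO, for a log2 difference of −1.84 (SE 0.62, unadjusted p = 0.0318, adjusted p = 0.680 by edgeR). Clec5a, a lectin that signals through Tyrobp, was at 57.3 and 52.8 CPM against 51.4 and 17.3 CPM. The closely related Sirpb1a, Sirpb1b and Sirpb1c, named after their values were seen, were at 2.61 to 5.04 CPM in AD and at 0.209 to 0.705 CPM in AD/KO. Their transcripts share 97.6% to 98.7% identity, so reads could be split among them. Without AD replicate 2 the median of the 15 receptors was −0.99, with 15 still lower, and on the scale of the microglia identity genes it was −1.17, with 14 lower. Siglech stood in both this list and the identity list. The sum of the monocyte markers was also lower in both AD/KO libraries. Ccr2, a chemokine receptor of monocytes, was at 39.8 and 40.0 CPM in AD and at 10.3 and 6.13 CPM in AD/KO. Not every marker separated: Chil3 was higher in both AD/KO libraries than in AD replicate 1. Vcan in AD/KO replicate 2 was also above AD replicate 1. The other markers of that list were, like Ccr2, lower in both AD/KO libraries. The part of the monocyte markers in the receptor values was not tested.

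The other 2 adaptors with activation motifs, Fcer1g and Cd247, were not separated. Fcer1g, the shared chain of Fc receptors, was at 124 and 133 CPM in AD and at 140 and 46.1 CPM in AD/KO. Among the kinases, 6 of 10 others were lower, near the 52.8% of all genes tested. The Src family kinase Fgr, known from neutrophils and other myeloid cells, was at 34.2 and 60.7 CPM in AD and at 13.5 and 9.33 CPM in AD/KO, for a log2 difference of −2.05 (SE 0.43, unadjusted p = 0.00515, adjusted p = 0.680 by edgeR). It was −1.51 without AD replicate 2. The Tec family kinase Tec was at 76.1 and 49.2 CPM against 47.3 and 16.4 CPM, lower in both AD/KO libraries. Lyn, the Src family kinase most abundant by CPM in the list, was at 481 and 332 CPM against 377 and 140 CPM. Src and Fyn, which neurons also express, were higher in mean, at 73.4 and 77.8 against 110 and 151 CPM for Src and at 26.8 and 58.7 against 54.8 and 106 CPM for Fyn. They were highest in AD/KO replicate 2, the library with the most neuron marker RNA, whose part in these values was not tested.

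Of the 39 other scaffolds and effectors, 29 were lower and 10 higher, with a median log2 fold change of −0.41. Over all genes tested 52.8% were lower. Rac2, a GTPase of blood cells that Vav1 can activate, was at 80.5 and 134 CPM in AD and at 75.0 and 34.6 CPM in AD/KO, and Pik3cb at 80.9 and 66.9 against 56.4 and 28.7 CPM. Itpr1, a calcium release channel abundant in neurons, was at 145 and 300 CPM in AD and at 280 and 723 CPM in AD/KO, and Akt2 at 69.5 and 87.9 against 88.9 and 131 CPM. Of the 23 other inhibitors, 21 were lower, with a median of −0.51. By edgeR 4 had an unadjusted p under 0.05, all lower, against 5% of all genes in either direction. Lilrb4a, an inhibitory receptor, was at 72.9 and 82.9 CPM in AD and at 20.9 and 14.6 CPM in AD/KO, for a log2 difference of −2.13 (SE 0.32, unadjusted p = 0.00130, adjusted p = 0.680 by edgeR). Its transcript shares 96.0% identity with Lilr4b, and the same locus is also annotated as Gm49339, so its counts are uncertain. Cd22, an inhibitory sialic acid receptor, was at 26.2 and 26.4 CPM against 10.7 and 5.59 CPM. The phosphatases Ptpn11 and Inppl1 were not lower, with log2 fold changes of 0.85 and 0.03. Without AD/KO replicate 2 the medians of the effectors and inhibitors besides the 10 genes were −0.09 and −0.08.

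Proposed ligands of Trem2 went in different directions. Clu, a lipoprotein made mainly by astrocytes in brain, was at 93.7 and 243 CPM in AD and at 332 and 831 CPM in AD/KO, following the astrocyte markers across libraries. Lgals3, a lectin of activated myeloid cells, was at 12.05 and 32.6 CPM against 5.16 and 4.88 CPM, and Il34, a cytokine of neurons, at 1.67 and 7.81 against 5.63 and 14.9 CPM. Apoe did not separate, at 1161 and 1488 CPM against 892 and 1636 CPM. Adam10, a protease that sheds Trem2 from the cell surface, was at 293 and 208 CPM in AD and at 233 and 111 CPM in AD/KO, and Adam17 at 210 and 141 against 169 and 70.8 CPM.

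**Figure D5:**
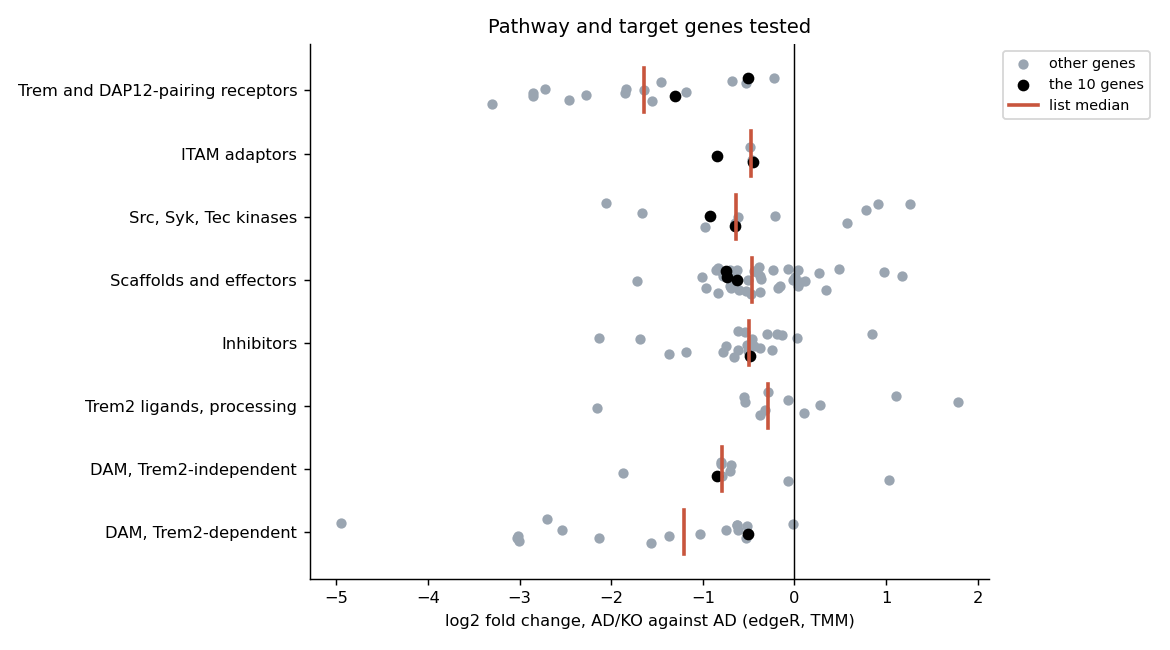
Log2 fold change of AD/KO against AD (x axis) for each tested gene of 6 pathway lists and of 2 lists of disease-associated microglia (DAM) genes (y axis), with the 10 genes in black and list medians as red bars. The medians run from −1.65 for the receptors to −0.29 for the Trem2 ligands and processing genes, and −1.20 for the Trem2-dependent genes.

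Trem2 and Tyrobp are best known here for the disease-associated state, so the genes of that state were divided by whether they have been described as needing Trem2. The 17 Trem2-dependent genes other than Trem2 were at a median of −1.37 on the log2 scale; 17 had a lower mean, and 13 had the AD/KO values all under the AD values. Over all genes tested, 52.8% had a lower mean and 21.7% had the AD/KO values all under the AD values. None of the 17 passed in edgeR, and DESeq2 called 6, all lower (Cst7, Lpl, Itgax, Clec7a, Lilrb4a and Spp1), against 0.42% of all genes. Without AD replicate 1 the median of the 17 was −1.52, and without AD replicate 2 it was −1.16. The 8 genes described as independent of Trem2, other than Tyrobp, had a median of −0.75, with 7 lower and 6 lower in both. The difference between the lists was not tested, and the low level of disease-associated genes in AD/KO was known when they were chosen. Lyz2, of the independent list, was at 301 and 815 CPM in AD and at 164 and 142 CPM in AD/KO, and was −0.91 on the log2 scale without AD replicate 2, against −1.87 with it. Cd63 was at 101 and 121 against 71.4 and 65.9 CPM, whereas Fth1, which stores iron, was at 407 and 581 against 746 and 1275 CPM. Cst7 and Clec7a, of the dependent list, were at 69.2 and 91.8 CPM in AD against 3.39 and 1.79 CPM in AD/KO, and at 78.5 and 85.3 against 10.1 and 9.88 CPM. In AD/KO replicate 1 Trem2 was at 425 CPM, against 426 CPM in AD replicate 1, while Cst7 and Clec7a were far below both AD libraries. On the scale of the microglia identity genes the medians were −0.65 for the 17 dependent and −0.26 for the 8 independent genes.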

How the data were processed

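RNA-seq of 4 libraries of CD11b+ microglia was analysed, 2 per group. The deposited files hold whole-number read counts per gene, not normalized; per the submitters' processing notes the authors used FastQC, HISAT2, SAMtools, featureCounts (Subread) and DESeq2 1.30.0 with build mm10. The annotation, strand setting and treatment of multi-mapping reads are not given in the sources used here. Totals were 13102622 to 19810076 counts per library. Of the rows, 11 without a count were left out, and all 49993 gene symbols with a count matched RefSeq's GRCm38.p6 table.

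Genes were filtered with filterByExpr (at least 10 counts, total at least 15), TMM-scaled and tested with edgeR 4.0.16 in R 4.3.3 (quasi-likelihood F-test, AD/KO against AD, no covariate, Benjamini-Hochberg over 21439 genes, threshold 0.05). The biological coefficient of variation was 44.5%. On simulated counts for this comparison with 200 of 20750 genes changed by 3 on the log2 scale, 54.0% were recovered. Alternatives were DESeq2 1.42.0, its size factors, edgeR's newer quasi-likelihood method, no filter, a minimum mean of 1 CPM, the replicate block, scaling to 18 microglia identity genes, and leaving out each library. Exon lengths were taken from GENCODE M21, and near-identical transcripts (95% over at least 100 bases) were found with BLAST 2.17.0.

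From each list the text names the 2 genes with the smallest unadjusted p in each direction, among those with a mean of at least 5 CPM; for patterns like Trem2 and Syk, the 5 nearest genes with a mean of at least 10 CPM. Others are named for their role or position, after their values were seen. The 10 genes and the lists were chosen with earlier results of these data known.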

Additional observations from a re-analysis of the deposited data

How the results depend on the processing

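With 2 libraries per group, 1 library decided several values. Leaving out each library in turn gave ranges of −1.75 to 0.17 for Trem2, −1.71 to −0.94 for Treml2, −1.62 to −0.31 for Tyrobp, −1.03 to −0.0077 for Hcst, −1.51 to −0.081 for Syk, −1.91 to −0.31 for Btk, −1.78 to −0.10 for Lat2, −1.60 to −0.020 for Vav1, −1.86 to −0.10 for Plcg2 and −1.44 to 0.11 for Inpp5d (log2 fold changes). The median of the 10 genes ran from −1.67 to −0.092, with 8 to 10 lower. In each of these the lowest value came without AD/KO replicate 1 and the highest without AD/KO replicate 2. List medians ran from −2.26 to −0.99 for receptors, −1.23 to −0.16 for adaptors, −1.21 to −0.089 for kinases, −1.15 to −0.098 for effectors, −1.27 to −0.076 for inhibitors, −0.50 to 0.033 for ligands and processing genes, −1.52 to −0.31 for Trem2-independent and −1.92 to −1.04 for Trem2-dependent genes. The count of genes called over the whole table lay between 0 and 524, the highest without AD replicate 2. It was 90 with DESeq2 and 0 with the other scalings, filters and the newer edgeR method, where 825 to 1548 genes had an unadjusted p under 0.05. Scaling to the microglia identity genes moved the median of all genes from −0.05 to 0.75 and gave 0.038 for Hcst, −0.99 for receptors, −0.024 for adaptors, −0.16 for kinases, 0.086 for effectors, 0.026 for inhibitors, 0.39 for ligands, −0.27 for Trem2-independent and −0.63 for Trem2-dependent genes; the cause was not tested. The labels do not say that libraries of one number shared a litter, day or batch, so the replicate block is an alternative only: it called 4333 genes, with Treml2 at −1.33 (edgeR adjusted p = 0.0278), Btk at −1.08 (0.0178), Lat2 at −0.92 (0.0400) and a kinase median of −0.80. Besides the 10 genes, the block called 7 of 15 receptors, 0 of 2 adaptors, 5 of 10 kinases, 12 of 39 effectors and 6 of 23 inhibitors. It also called 3 of 11 ligand and processing genes, 3 of 8 Trem2-independent and 10 of 17 Trem2-dependent genes. Over all genes tested the block called 20.2%, in either direction. Deviations of same-numbered libraries correlated at 0.68 across genes. In both groups replicate 1 also had higher microglia identity levels and lower neuron and astrocyte levels than replicate 2. The correlation therefore does not show a pairing.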
